A study of Mus musculus with 28 samples.

Results

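The major urinary proteins are described here through 6 genes, Mup2, Mup3, Mup7, Mup16, Mup20 and Mup21, taken by name from the RNA-seq tables of a mouse study in which fibroblasts were turned chemically into progenitor cells and then into hepatocyte-like cells. They are 6 of 31673 genes in the series-wide table, which holds 15 other Mup genes. One more, Mup22, stood only in the tables given per sample, so the family comprised 22 genes there. The 6 genes were chosen by their measured levels (TPM and counts) in primary hepatocytes and in hepatocyte-like cells. All levels of the Mup genes are therefore given as a description, without a test.

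Major urinary proteins are small secreted lipocalins, barrel-shaped proteins that hold hydrophobic ligands. The adult liver makes them in quantity, the kidney passes them into urine, and there they bind and slowly release volatile pheromones. Their genes lie side by side and many are near-identical copies. In liver their transcription depends on growth hormone acting through its receptor and STAT5, with further control by the factor ZHX2 and by hepatocyte nuclear factors, and it is higher in males.

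The hepatocyte-like cells, called ciHep, came in 2 groups. The 3 MEF_ciHep libraries were derived from MEF_ciEPC, the progenitor cells of embryonic fibroblasts, and the 2 MNF_ciHep libraries from MNF_ciEPC, those of neonatal dermal fibroblasts. For both, the labels give progenitors of passage 3 to 10 as the starting cells and do not name the compounds. MEF_ciEPC had 10 libraries in 2 numbered series of passages 1 to 22, and MNF_ciEPC had 2 libraries, of passages 2 and 3. The title and description of MNF_ciEPC give a neonatal origin and its source name an embryonic one, so its grouping as neonatal, and each value set against it, rests on the title. The other libraries were 2 of ESC_EPC, progenitors made from embryonic stem cells, 3 of the embryonic fibroblasts themselves (MEF, E13.5), 2 of the neonatal fibroblasts (MNF) and 2 of embryonic stem cells (ESC, line OG2). The reference cells were 2 libraries of pHep, primary hepatocytes from adult liver at passage 0. Every source mouse carried an Oct4-GFP transgene on a CBA/CaJ by C57BL/6J background. For MEF, ESC and the cells made from them, such mice had been crossed to 129Sv/Jae females, which was not so for pHep, MNF and the cells made from MNF. MEF_ciHep and pHep thus differed in strain as well as in cell type, and these cannot be told apart. The labels do not give the sex or exact age of the liver donors, and do not say that replicates came from separate animals or cultures, so p-values measure only the spread between these samples.

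Library totals ran from 1439670 to 6133147 expected counts, with 2420756 to 6133147 in MEF_ciHep, 1664063 to 3102564 in MNF_ciHep and 2010637 to 2745369 in pHep. Some libraries stood apart. MEF_ciEPC series 2 passage 22 had 1908 TPM (a gene's share of a library, scaled and corrected for transcript length) of Pou5f1, the pluripotency factor, against at most 2.1 TPM in the other 9 MEF_ciEPC libraries. Alb, the albumin gene that defines hepatocytes, was at 1035, 1817 and 2409 TPM in MEF_ciHep but at 0 and 0.56 TPM in MNF_ciHep, against 14800 and 11138 TPM in pHep, so the hepatocyte label of MNF_ciHep was not borne out by that marker. The 10 markers of stellate cells and fibroblasts summed to 12.8 to 24.2 TPM in MEF_ciHep and to 3235 and 1054 TPM in MNF_ciHep. The Y-linked Ddx3y was at 11.8 and 9.06 TPM in MNF_ciHep and at 0 in both MNF_ciEPC libraries, their labelled source. The 2 pHep libraries differed in the same kind of gene, as given with their comparison.

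In the gene annotation of mouse build GRCm38, the one on which the tables' identifiers were looked up, the 22 Mup genes span chr4:59956804-62150863, with 21 on the minus strand. Mup7 (ENSMUSG00000073842) lies at chr4:60066469-60070475 and Mup2 (ENSMUSG00000078688) at chr4:60135932-60154289. Mup16 (ENSMUSG00000078675) is at chr4:61515592-61519531. Mup20 (ENSMUSG00000078672), Mup3 (ENSMUSG00000066154) and Mup21 (ENSMUSG00000066153) lie near the end of the cluster with the highest coordinates, at chr4:62050234-62054158, chr4:62083476-62087342 and chr4:62147932-62150863, all 3 on the minus strand like the rest. The start regions of 4 of the 6 genes were in the RefSeq promoter set of GRCm38.p6, each covering 250 bases before and 50 after the start on the minus strand. They are shown because the 6-base core ATCAAT, the element recognised by the liver ONECUT factors, occurs in each of them as a pair. Capitals mark that core.
Mup2 is chr4:60139807-60140106, Mup3 is chr4:62087268-62087567, Mup7 is chr4:60070426-60070725 and Mup21 is chr4:62150792-62151091.
Mup2: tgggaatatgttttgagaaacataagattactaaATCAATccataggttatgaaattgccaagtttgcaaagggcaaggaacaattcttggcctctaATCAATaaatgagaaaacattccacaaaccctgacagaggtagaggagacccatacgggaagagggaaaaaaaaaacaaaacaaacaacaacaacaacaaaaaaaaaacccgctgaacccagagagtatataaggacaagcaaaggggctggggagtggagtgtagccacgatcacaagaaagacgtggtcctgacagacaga
Mup3: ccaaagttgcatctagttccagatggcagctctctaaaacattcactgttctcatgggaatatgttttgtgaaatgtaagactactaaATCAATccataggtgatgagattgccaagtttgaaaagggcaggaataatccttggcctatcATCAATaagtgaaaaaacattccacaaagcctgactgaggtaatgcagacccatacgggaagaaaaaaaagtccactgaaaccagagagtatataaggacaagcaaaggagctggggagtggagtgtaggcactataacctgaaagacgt
Mup7: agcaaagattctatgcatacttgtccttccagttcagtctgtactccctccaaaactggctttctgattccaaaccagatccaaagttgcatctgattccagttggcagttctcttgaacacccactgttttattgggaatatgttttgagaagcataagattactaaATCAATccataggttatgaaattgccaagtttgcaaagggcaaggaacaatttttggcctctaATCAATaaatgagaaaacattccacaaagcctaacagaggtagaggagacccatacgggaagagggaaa
Mup21: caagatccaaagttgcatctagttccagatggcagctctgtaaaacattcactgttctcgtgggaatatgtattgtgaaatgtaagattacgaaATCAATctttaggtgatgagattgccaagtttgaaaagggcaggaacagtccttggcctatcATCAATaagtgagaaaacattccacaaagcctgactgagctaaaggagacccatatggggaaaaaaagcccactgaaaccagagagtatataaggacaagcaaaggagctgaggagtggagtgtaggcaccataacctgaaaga

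The cores stood 216 and 153 bases before the annotated start in Mup2, 162 and 100 in Mup3, 82 and 19 in Mup7, and 156 and 94 in Mup21. The annotated starts are not at matching points of these related sequences, so the distances cannot be compared between genes. The Mup2 window lies inside the Mup2 span given above, and the Mup7 window ends before the stretch tatataag that the others reach. The spacing of the cores, which does not depend on the start, was 63 bases in Mup2 and Mup7 and 62 bases in Mup3 and Mup21. All 14 Mup promoters in the set held the core, searched on both strands, whereas 7.54% of 32851 mouse promoters of the same length held it at least once and 0.694% at least 2 times. The Mup promoters are related sequences, so the 14 are not independent. Over the aligned parts, Mup2 and Mup7 were 97.6% identical and Mup3 and Mup21 93.3%, while Mup2 and Mup3 were 76.8% identical. The letters TTCNNNGAA, the core that STAT factors recognise, were in 0 of the 14 windows and in 8.3% of all promoters. TATAAA, 1 spelling of the TATA box, was in 2 of the 14, those of Mup4 and Mup6, and in 13.6% of all promoters. Only this exact spelling was searched. The printed windows of Mup2, Mup3 and Mup21 hold the near form tatataag, so the count does not show that a TATA box is absent. These matches describe letters in a short window only.

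Near-identity limits what a count for 1 Mup gene means. The files imply reads of about 50 bases, from the difference between transcript length and effective length. That difference was 49.5 in pHep library 1 and 50.5 in pHep library 2 and every ciHep library. Of the 51-base windows of each gene's transcripts, 87.3% were found in no other gene for Mup3, 81.2% for Mup21 and 49.9% for Mup20, whose closest relative was the pseudogene Mup-ps19. The share was 21.8% for Mup2, 146 of 1082 windows for Mup7 and 8.5% for Mup16. For Mup15, Mup19 and Mup22 no window was unique. Mup2 and Mup16 had transcripts 99.1% identical, while those of Mup3 and Mup21 were 54.0% identical. Values for Mup2, Mup7 and Mup16, and for other Mup genes with few unique windows, are therefore shares of a common pool as the authors' program divided it. Of 58 single Mup values above 0, 36 were not whole numbers within 0.02, but summed over the 22 genes the counts were whole in all 16 libraries that had any.

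**Figure D1:**
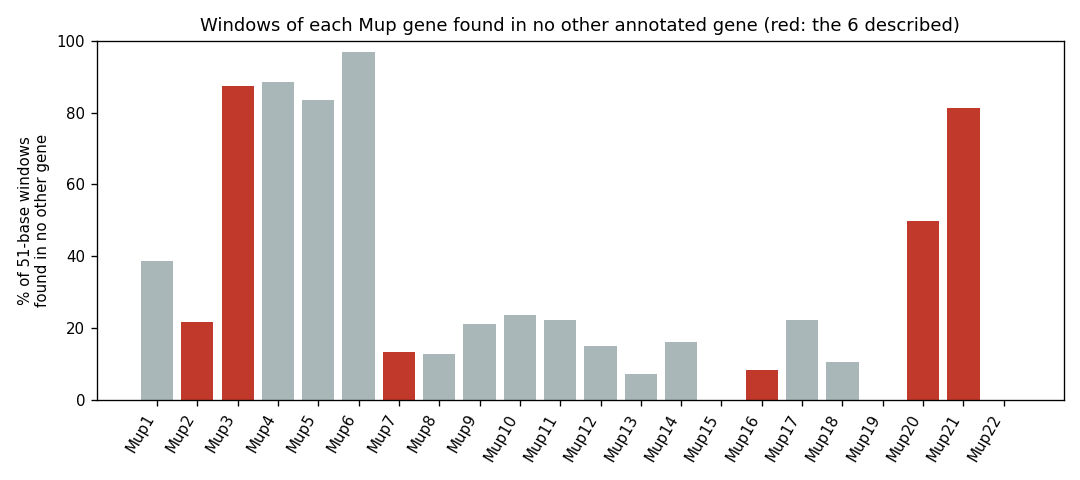
Share of 51-base transcript windows (vertical axis, percent) that occur in no other annotated gene, for each of the 22 Mup genes, with the 6 genes described in red. Mup3 (87.3%) and Mup21 (81.2%) are largely distinguishable, Mup20 about as often as not (49.9%), and Mup16 (8.5%) hardly.

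In hepatocyte-like cells the major urinary protein genes were at or near 0, and in primary hepatocytes they were among the abundant transcripts of 1 library and far lower in the other. Mup7 was at 0 TPM in all 3 MEF_ciHep and both MNF_ciHep libraries, against 5856 TPM in pHep library 1 and 9.09 TPM in pHep library 2. Mup3, a divergent member at the edge of the cluster, had 0, 0.73 and 0 TPM in MEF_ciHep and 0 in both MNF_ciHep libraries, against 1806 and 462 TPM in pHep. Every ciHep value of both genes lay below both pHep values, but for Mup7 the pHep libraries were further apart from each other than the lower one was from 0 in TPM.

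Mup20 encodes darcin, the protein pheromone of male mouse urine that attracts females. It had 1.82, 11.04 and 2.91 TPM in MEF_ciHep and 0 in both MNF_ciHep libraries, against 674 and 104 TPM in pHep. It was the member with a value above 0 in every MEF_ciHep library, and none of those values reached the lower pHep library. The counts behind them were 2, 30.7 and 4, so most of the MEF_ciHep signal came from replicate 2.

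Mup16 was at 0 in MEF_ciHep and at 0.86 and 0 TPM in MNF_ciHep, against 241 and 7.03 TPM in pHep. Mup2 was at 0 in all 5 ciHep libraries, against 149 and 87.7 TPM in pHep. Mup21, the shortest of these transcripts, was at 0 in all 5 as well, against 19.02 TPM in pHep library 1 and 0 in library 2. For Mup21 the second pHep library and the ciHep libraries were thus alike at 0, and for Mup2 the pHep libraries lay closest together.

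**Figure D2:**
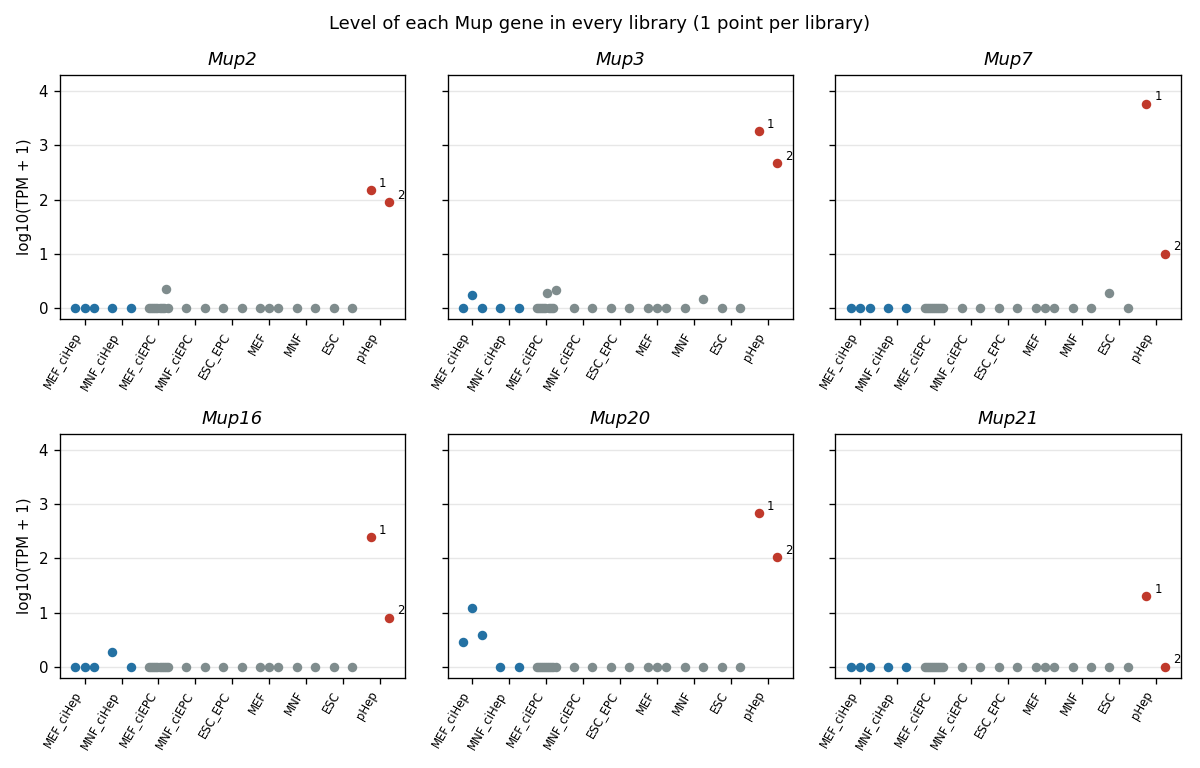
Level on a log10(TPM + 1) axis of each of the 6 Mup genes in every library, by group. Mup7 reaches 5856 TPM in pHep library 1 and 9.09 TPM in library 2, and all ciHep points lie at or near 0, with Mup20 at up to 11.04 TPM in MEF_ciHep.

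With the libraries of a ciHep group pooled and set against each pHep library in CPM, the count scaled to library size, the size of the difference depended on the hepatocyte library. Against a group at 0, a fold is a lower bound computed from 3 counts over the pooled group, which is 0.257 CPM in MEF_ciHep and 0.628 CPM in MNF_ciHep. Bounds and intervals (exact binomial, 95%) cover counting error only, and a bound grows with the depth of the pool. In bulk RNA, fewer cells of a type and less RNA per cell cannot be told apart. Mup7 was at least 11110-fold lower in MEF_ciHep than in pHep library 1 and at least 15.9-fold lower than in library 2. In MNF_ciHep it was at least 4555-fold and at least 6.52-fold lower.

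Mup3 in MEF_ciHep, with 2 counts, was 5166-fold lower than in pHep library 1 (1429 to 42690) and 1208-fold lower than in library 2 (332 to 10000), and at 0 without replicate 2, at least 1629-fold and 381-fold lower. In MNF_ciHep it was at least 1411-fold and at least 330-fold lower. Mup20 was 105-fold lower in MEF_ciHep than in pHep library 1 (75.3 to 149.5) and 14.8-fold lower than in library 2 (9.96 to 22.2). Without MEF_ciHep replicate 2, which held 30.7 of its 36.7 counts, it was 305-fold (139.6 to 833.5) and 42.9-fold (18.99 to 119.9) lower. It was at least 528.5-fold and at least 74.3-fold lower in MNF_ciHep. Mup2 was at least 231-fold and 154-fold lower in MEF_ciHep, and at least 94.7-fold and 62.9-fold lower in MNF_ciHep. Mup16 was at least 356-fold and 9.42-fold lower in MEF_ciHep, and with its 0.98 counts in MNF_ciHep 447-fold (77.8 to 17350) and 11.8-fold (1.33 to 561) lower. Mup21 was at least 26.0-fold lower in MEF_ciHep and at least 10.7-fold lower in MNF_ciHep than in pHep library 1, and no fold can be given against library 2. For the 5 genes present in both pHep libraries the bound or ratio was larger against library 1.

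The sum over all 22 Mup genes does not depend on how reads were divided among those genes. It was 3, 53.0 and 34.0 counts in MEF_ciHep and 9 and 3 counts in MNF_ciHep, against 23308 and 756 counts in pHep. The family was 1093-fold lower in MEF_ciHep than in pHep library 1 (889 to 1360) and 48.7-fold lower than in library 2 (39.1 to 61.2). In MNF_ciHep it was 3360-fold (1923 to 6503) and 149.5-fold (85.1 to 291) lower. Of 26 listed secreted liver proteins, measured the same way in MEF_ciHep, all 26 stood less far below pHep library 1 than the Mup family did, with a median of 8.25-fold lower. Against library 2, 25 of 26 did, with a median of 4.76-fold, and the exception was Serpina3k, a serpin, at 55.8-fold lower (39.8 to 82.4). Alb was 8.93-fold and 6.16-fold lower, and the retinol-binding lipocalin Rbp4 3.53-fold and 1.85-fold lower than in pHep library 1 and library 2. Apoa1, the main apolipoprotein of HDL, was higher in MEF_ciHep, at 22586, 8883 and 19036 TPM, against 7530 and 1408 TPM in pHep. This order did not hold throughout MNF_ciHep. There Alb, with 1 count, was 78550-fold and 54210-fold lower, further below pHep than the family. Apoa1, Ttr and Rbp4 stood less far below than the family there. The rest of the 26 were not set against the family in MNF_ciHep, so its place among them there is not given. Of the 26, 3 (Apoh, Serpina1a and Serpina1c) were at 0 in MNF_ciHep. Hpx was at 2.43 and 1.91 TPM there against 2496 and 3177 TPM in pHep, while Fetub was at 54.7 and 88.9 TPM against 76.5 and 72.4 TPM. The Mup genes were chosen on such levels, so their place beside other genes is a description only.

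Outside ciHep and pHep the 6 genes were at 0 but for single counts. Mup2 had 1 count in MEF_ciEPC series 2 passage 10, Mup7 had 1 count in an ESC library, and Mup3 had 1 count each in MEF_ciEPC series 1 passage 22, series 2 passage 22 and MNF replicate 2. Mup16, Mup20 and Mup21 were at 0 there. Ordered by mean level, pHep came first for each of the 6 genes and MEF_ciHep next for Mup20. The remaining groups held 0 to 2 counts per library, which gives no order among them.

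Set against the progenitors it was made from, MEF_ciHep held Mup20 and MEF_ciEPC did not. Mup20 had 36.7 counts over the 3 MEF_ciHep libraries and 0 over the 10 MEF_ciEPC libraries, at least 25.9-fold higher in MEF_ciHep. It was above 0 in 3 of 3 MEF_ciHep libraries. Without MEF_ciHep replicate 2 the counts were 6 and 0 and the bound was 8.95-fold. Against MNF_ciHep, where Mup20 was at 0, the bound was 5.02-fold, and 1.73-fold without MEF_ciHep replicate 2. The other 5 genes had 0 to 2 counts over each of MEF_ciHep, MNF_ciHep and MEF_ciEPC and 0 in MNF_ciEPC, too few to compare.

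Over the whole family, MEF_ciHep had 90.0 counts and MEF_ciEPC 12, a 15.9-fold higher level (8.66 to 31.9). Of those 12 counts, 9 came from MEF_ciEPC series 2 passage 22, and without it the level was 58.9-fold higher in MEF_ciHep (19.5 to 291). At the same step MNF_ciHep had 12 counts and MNF_ciEPC 0, at least 9.25-fold higher in MNF_ciHep. MEF_ciHep stood 3.07-fold above MNF_ciHep (1.68 to 6.17). Those last intervals treat counts as independent and leave out the spread between libraries.

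The 2 pHep libraries differed from each other in every one of the 6 genes, in level and in the make-up of the family. Mup7 was 644-fold higher in library 1 (337 to 1537), Mup16 34.3-fold (14.2 to 104), Mup20 6.52-fold (5.26 to 8.14), Mup3 3.91-fold (3.52 to 4.35) and Mup2 1.70-fold (1.29 to 2.23) in TPM. Mup21 was at least 4.11-fold higher there. With 1 library on each side, these are differences between libraries with no replicate check. The 6 genes summed to 8746 TPM in library 1 and 669.5 TPM in library 2. All 22 genes summed to 17862 TPM in library 1, 20.9 times (19.4 to 22.5) the 854.74 TPM of library 2. Mup3, which can largely be told from its relatives, thus differed by 3.91-fold, less than the family sum, and Mup7, mostly shared with Mup1, by far more.

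**Figure D3:**
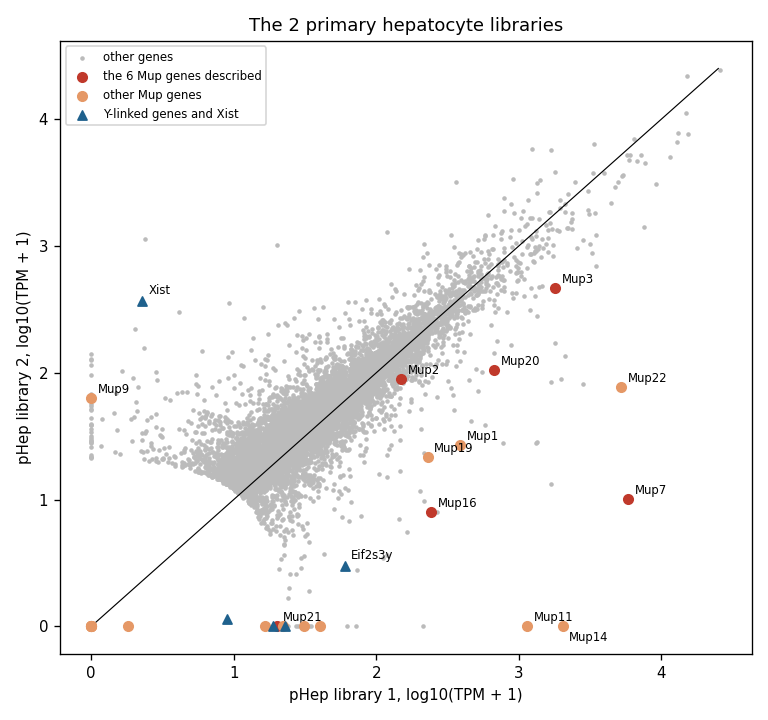
Level of each gene with a mean of at least 10 TPM and of all Mup genes in pHep library 1 (horizontal) and library 2 (vertical), both as log10(TPM + 1), with a line of equality. Most Mup genes lie on the side of library 1, with Mup7 at 5856 against 9.09 TPM, and Mup9 lies on the side of library 2 with 62.6 TPM against 0.

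Among 9029 genes with a mean of at least 10 TPM in pHep, ordered by the log2 ratio of library 2 over library 1 after adding 1 TPM, the 3 genes most shifted to library 1 were Mup14, Mup11 and Mup7. Mup22 was at place 7, Mup18 at 11, Mup12 at 20, Mup16 at 22, Mup20 at 65, Mup3 at 111 and Mup2 at 568. The median over the 9029 genes was 0.233, and the 1st and 99th percentiles were -2.26 and 3.35. Of the 14 Mup genes ranked, 11 lay below the 1st percentile, 3 of the 6 described here among them. Mup11, Mup12, Mup14, Mup17 and Mup18 were at 0 in library 2, so they met the mean of 10 TPM through library 1 alone, which favours low places. Most of the 11 also share reads with each other, so they are not independent and their number is a description only. Mup9 went the other way, at place 9017. It had 62.6 TPM in library 2 and 0 in library 1, at least 26.3-fold higher in library 2, a bound for counting error only. Of the transcript windows, 21.2% were unique for Mup9, 22.4% for Mup11 and 16.2% for Mup14. Single values and places of such genes thus depend on how shared reads were divided.

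The family was composed differently in the 2 libraries. In library 1, Mup7 took 33.9% of Mup counts, Mup3 10.5% and Mup20 3.93%, and Mup7, Mup14 and Mup22 together 73.7%. In library 2, Mup3 took 55.2%, Mup20 12.4% and Mup7 1.09%, and Mup7, Mup14 and Mup22 together 9.54%. The 6 genes were 50.2% of family counts in library 1 and 79.8% in library 2. Over all counts, the family was 0.844% of library 1 (0.833 to 0.855) and 0.0376% of library 2 (0.0349 to 0.0403). Mup14 was at 2032 TPM and Mup11 at 1139 TPM in library 1 and both at 0 in library 2, while Mup1 was at 389 and 25.8 TPM and Mup19 at 228 and 20.6 TPM. Mup4 and Mup8 were at 0 in all 28 libraries.

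**Figure D4:**
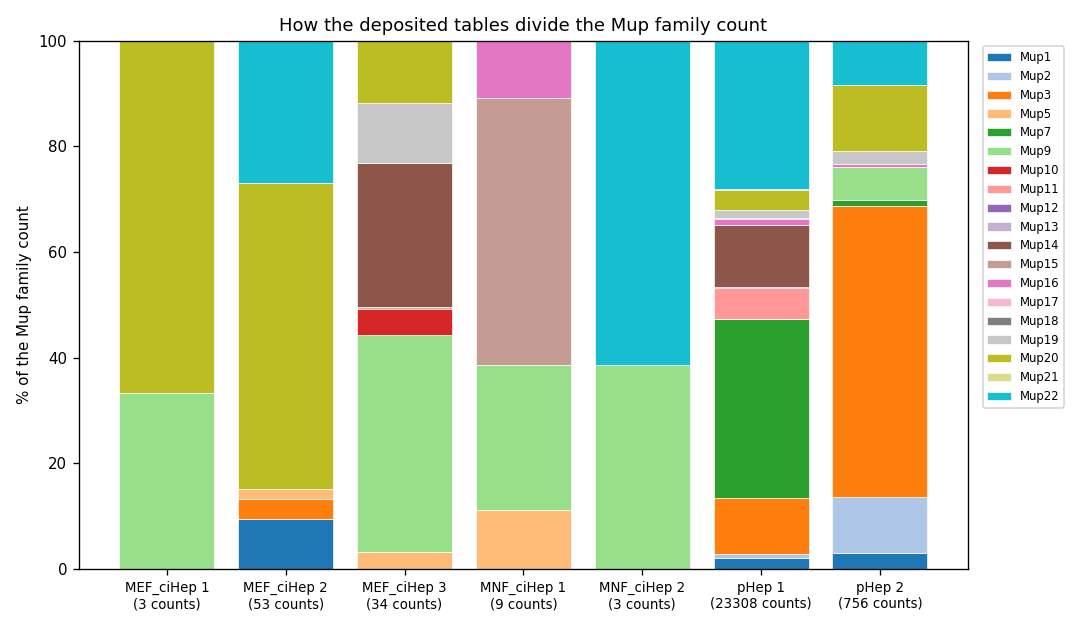
Share of all Mup counts (percent) that each Mup gene took in each ciHep and pHep library, with the total Mup count under each bar. The ciHep bars rest on 3 to 53 counts. Mup7 is the largest share of library 1 at 33.9%, and Mup3 of library 2 at 55.2%.

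Markers of donor sex and of some other cell types, but not all, moved with this difference. Xist, the transcript that silences an X chromosome in females, was at 1.29 TPM in pHep library 1 and 367 TPM in library 2, and the Y-linked Ddx3y and Eif2s3y were at 21.9 and 58.9 TPM in library 1 and at 0 and 2.01 TPM in library 2. All 4 Y-linked genes listed were at least 2-fold higher in library 1. Of 16 listed female-biased liver genes at 1 TPM or more, 13 were at least 2-fold higher in library 2 and 0 in library 1, and of 16 male-biased genes 6 were higher in library 1 and 4 in library 2. Over all 15214 genes at that level, 24.6% were higher in library 2 and 10.1% in library 1. Gstp1, a male-biased glutathione transferase, was at 1805 TPM in library 1 and 3832 TPM in library 2, and Egfr, the epidermal growth factor receptor, at 217 and 348 TPM. Cyp2a4, a female-biased steroid hydroxylase, was at 0.64 TPM in library 1 and 102.7 TPM in library 2. Trim24, a transcriptional cofactor, was at 47.4 and 46.9 TPM. Of 10 macrophage markers 9 were higher in library 2, with sums of 110 and 190 TPM, and 5 of them were at 0 in library 1. Of 10 stellate cell and fibroblast markers 9 were higher in library 2, with sums of 10.51 TPM in library 1 and 276 TPM in library 2. Of 6 endothelial markers at 1 TPM or more, 0 were at least 2-fold higher in either library, and the list summed to 28.9 and 27.3 TPM. Of 6 such cholangiocyte (bile duct) markers, 2 were higher in library 1 and 1 in library 2, and the list summed to 2263 and 1127 TPM. The 14 hepatocyte markers summed to 25108 and 13946 TPM in pHep. The length implied by the files was 49.5 bases for library 1 and 50.5 bases for library 2, so the 2 also differed technically. Both pHep libraries carry the same strain label. The part that sex, cell make-up, technical differences or any strain difference behind that shared label had in the Mup difference was not tested.

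The genes most unequal between the pHep libraries, Mup aside, were Gm17669, Chd9, Hist2h2aa2, Gvin1 and Serpina1e toward library 1 and Xist, Eno1b, Tgtp2, Gm8909 and Gm10184 toward library 2. Serpina1e, a male-biased serine protease inhibitor, was at 1325 and 27.04 TPM. Chd9, a chromatin remodeller, was at 1675 and 12.3 TPM.

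Growth hormone signalling genes, which lie upstream of Mup transcription, were partly lower in ciHep. Of 12 genes on that list, 1 was higher and 5 were lower in MEF_ciHep than in pHep (edgeR, called at an adjusted p under 0.05 and at least 2-fold, as 25.9% of all genes were), with a median log2 difference of -0.66 over the list and 0.01 over all genes. In MNF_ciHep 2 were higher and 4 lower than in pHep (31.8% of all genes were called), with a median of -0.60 and 0.11 over all genes. Ghr, the growth hormone receptor, was at 54.6, 26.3 and 34.1 TPM in MEF_ciHep and 16.5 and 12.5 TPM in MNF_ciHep, against 198 and 84.7 TPM in pHep, so no ciHep value reached pHep. It fell by 1.97 ± 0.39 on the log2 scale in MEF_ciHep (SE, edgeR adjusted p = 0.00118), a call lost without pHep library 1 (adjusted p = 0.0574), and by 2.96 ± 0.47 in MNF_ciHep (edgeR adjusted p = 2.2e-04). Against MEF_ciEPC it was 4.72 ± 0.52 higher in MEF_ciHep on the log2 scale (edgeR adjusted p = 6.2e-06).

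Stat5b, the transducer of that receptor, was at 12.0, 15.8 and 12.3 TPM in MEF_ciHep and 5.01 and 4.90 TPM in MNF_ciHep, against 42.5 and 29.3 TPM in pHep. It fell by 1.65 ± 0.25 on the log2 scale in MEF_ciHep (edgeR adjusted p = 1.2e-04). Igf1, a growth hormone target and itself a secreted growth factor, was at 0, 4.76 and 0.39 TPM in MEF_ciHep and 52.4 and 43.9 TPM in MNF_ciHep, against 384 and 123.5 TPM in pHep. The groups did not overlap in either gene, but the share of all genes without overlap in groups this small is not given. Igf1 fell by 6.42 ± 0.77 on the log2 scale in MEF_ciHep (edgeR adjusted p = 1.3e-05) and by 1.85 ± 0.67 in MNF_ciHep (edgeR adjusted p = 0.0359), the last lost under 5 of 13 alternatives, where adjusted p reached 0.342. Socs3, a feedback inhibitor of cytokine signalling, was the gene that rose in MEF_ciHep, by 3.42 ± 0.51 on the log2 scale (edgeR adjusted p = 9.2e-05).

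Of 19 transcription factors and receptors reported upstream of Mup genes, 11 were higher and 0 lower in MEF_ciHep than in MEF_ciEPC (32.7% of all 16062 genes were called), with a median log2 difference of 1.60, and -0.08 over all genes. In MNF_ciHep 8 were higher and 3 lower than in MNF_ciEPC (30.3% of all genes were called). Against pHep, 1 was higher and 9 lower in MEF_ciHep (25.9% of all genes called), with a median of -1.02, and 3 were higher and 13 lower in MNF_ciHep (31.8% called), with a median of -2.15. Zhx2 was at 9.43, 3.50 and 2.36 TPM in MEF_ciHep and 8.93 and 7.26 TPM in MNF_ciHep, against 12.3 and 9.39 TPM in pHep. The first MEF_ciHep value reached the lower pHep value. Zhx2 fell by 2.05 ± 0.36 on the log2 scale in MEF_ciHep (edgeR adjusted p = 3.4e-04), a call lost on log2(TPM + 0.1) values with limma (adjusted p = 0.0612), and did not pass in MNF_ciHep (-0.87 ± 0.38, edgeR adjusted p = 0.0817).

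Hnf4a, a nuclear receptor of the hepatocyte, separated the ciHep groups. It was at 98.0, 130.3 and 70.1 TPM in MEF_ciHep and 1.5 and 5.69 TPM in MNF_ciHep, against 282 and 242.5 TPM in pHep. The change from progenitor to ciHep differed between origins, whose MNF arm joins libraries unlike in Ddx3y, by 4.94 ± 0.70 on the log2 scale for Hnf4a (edgeR interaction, adjusted p = 2.2e-04), in a contrast that called 29.6% of all genes. Onecut1, a factor of the ONECUT family, was at 6.36, 4.2 and 5.04 TPM in MEF_ciHep and 0 and 1.14 TPM in MNF_ciHep, against 5.51 and 15.6 TPM in pHep. Cebpa, a liver factor, was at 17.7, 18.1 and 27.4 TPM in MEF_ciHep and 16.7 and 13.4 TPM in MNF_ciHep, against 14.8 and 71.9 TPM in pHep, so its values overlapped. Cebpb, its relative, was at 36.4, 25.4 and 44.1 TPM in MEF_ciHep and 272.6 and 203 TPM in MNF_ciHep, against 48.4 and 132 TPM in pHep. It fell by 1.39 ± 0.40 on the log2 scale in MEF_ciHep (edgeR adjusted p = 0.012) and rose by 1.29 ± 0.42 in MNF_ciHep (edgeR adjusted p = 0.022), calls lost under 3 of 14 and 4 of 13 alternatives, where adjusted p reached 0.218 and 0.192. Rxra, a partner of many nuclear receptors, fell by 1.46 ± 0.22 in MNF_ciHep (edgeR adjusted p = 1.2e-04). Nr3c1, the glucocorticoid receptor, was at 29.6, 23.4 and 27.3 TPM in MEF_ciHep, 14.0 and 11.3 TPM in MNF_ciHep, and 17.7 and 21.5 TPM in pHep. The presence of these factors in MEF_ciHep beside near-absent Mup transcripts is a set of measurements; no relation between them was tested.

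**Figure D5:**
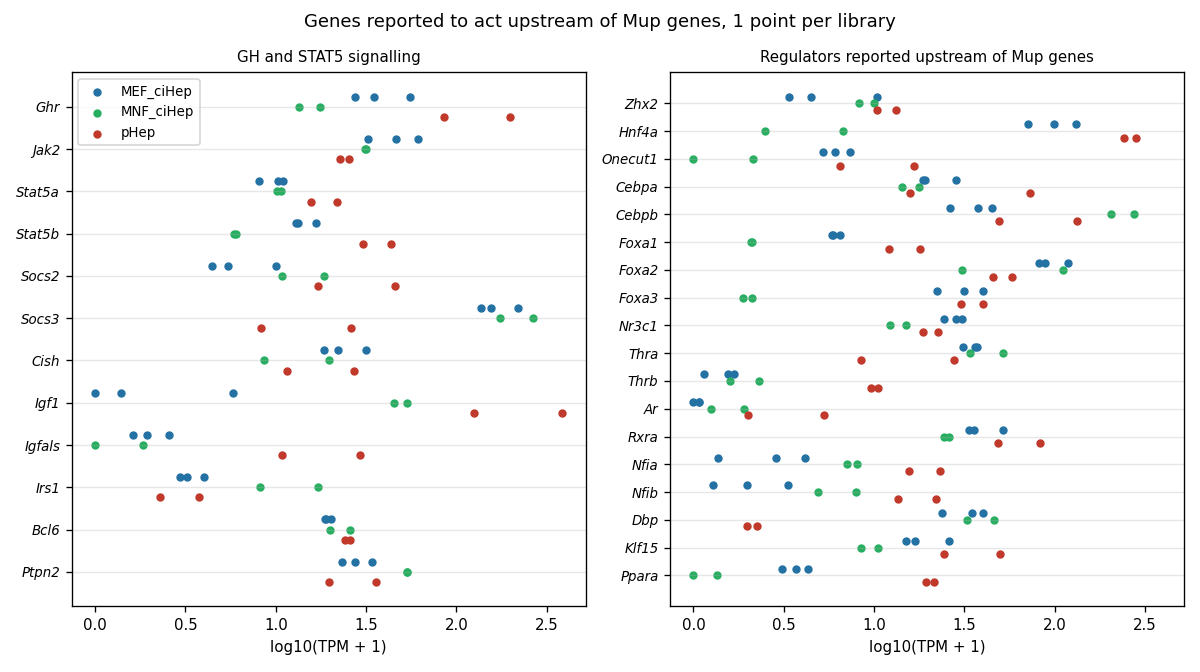
Level, as log10(TPM + 1), of growth hormone and STAT5 genes (left) and 18 of the 19 regulators reported upstream of Mup genes (right) in each MEF_ciHep, MNF_ciHep and pHep library. Ghr lies below pHep in every ciHep library (26.3 to 54.6 TPM in MEF_ciHep, 84.7 and 198 TPM in pHep), while Hnf4a lies at 70.1 to 130.3 TPM in MEF_ciHep and at 1.5 and 5.69 TPM in MNF_ciHep, against 242.5 and 282 TPM in pHep.

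Beyond Mup, 8 of 21 genes on a lipocalin list, which also held Pate4, not a lipocalin, were tested. Of all genes 25.9% and 31.8% were called in MEF_ciHep and MNF_ciHep against pHep, 10.8% and 13.4% as lower, and 32.7% and 30.3% against the progenitors, 17.8% and 19.5% as higher. In both ciHep groups 0 were higher and 7 lower than in pHep, while against the progenitors 5 were higher and 1 lower in MEF_ciHep and 6 higher and 0 lower in MNF_ciHep (3 called when either MNF_ciEPC library was left out). Lcn2, an iron-siderophore carrier of the acute phase, was at 88.9, 202 and 111 TPM in MEF_ciHep and 860 and 412 TPM in MNF_ciHep, against 1685 and 5719 TPM in pHep. Ambp, the precursor of a plasma lipocalin and a protease inhibitor, was at 143, 126 and 205 TPM in MEF_ciHep and 0.96 and 2.74 TPM in MNF_ciHep, against 920 and 1807 TPM in pHep. The groups did not overlap in either gene, again without a share over all genes to set beside it. Rbp4 was at 666, 699.5 and 856 TPM in MEF_ciHep and 65.3 and 113 TPM in MNF_ciHep, against 2368 and 1362 TPM in pHep, a change in MEF_ciHep of -1.46 ± 0.31 on the log2 scale (edgeR adjusted p = 0.00172), a call lost without pHep library 1 or with limma on log2(TPM + 0.1) values, where adjusted p reached 0.0634. Of 26 abundant secreted hepatocyte proteins, 0 were higher and 22 lower in MEF_ciHep than in pHep, and 0 and 25 in MNF_ciHep, against the same shares of all genes. With limma on log2(TPM + 0.1) values 14 were called in MEF_ciHep. Trf, the transferrin gene, was at 13035, 3153 and 11551 TPM in MEF_ciHep and 97.0 and 134 TPM in MNF_ciHep, against 15178 and 22064 TPM in pHep, and did not pass in MEF_ciHep (edgeR adjusted p = 0.192). Apoe, a lipid carrier, was at 1677, 603 and 1395 TPM in MEF_ciHep and 1316 and 2663 TPM in MNF_ciHep, against 6474 and 7021 TPM in pHep. Against the progenitors, 24 were higher and 0 lower in MEF_ciHep and 12 and 0 in MNF_ciHep.

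Among the 10 genes outside the family whose log2(TPM + 1) over the 28 libraries was most like that of the 6 summed genes, of 14364 genes reaching 10 TPM, were Cyp4a10 (Pearson r = 0.987), Aadac (0.978), Hrg (0.973), Serpina3k (0.973), Tat (0.968), Kmo (0.962), F11 (0.956), R3hdml (0.955) and Sult1e1 (0.95). All the points but the 2 pHep libraries lay near 0, so the likeness describes genes present in pHep and all but absent elsewhere. Serpina3k, a secreted serpin, was at most 3.90 TPM outside pHep and 882 and 164 TPM in pHep. Over the 9 group means instead, 3 of the 10 genes remained.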

How the data were processed

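RNA-seq of 28 mouse libraries was used, made with a TruSeq RNA kit from Trizol RNA per the labels' protocols. The authors deposited expected counts and TPM values per gene, made with RSEM 1.2.4 on mm10 per the submitters' processing notes. Per-gene values come from the series-wide tables, and those of Mup22 and of family sums from the per-sample tables. Expected counts were rounded to whole numbers and fitted with edgeR 4.0.16 (R 4.3.3; TMM, filterByExpr minimum count 10, quasi-likelihood test, Benjamini-Hochberg adjustment over 16062 genes). All 9 groups entered 1 fit, with the MEF_ciEPC libraries summed to 2 series, giving 20 samples. A gene was called at an adjusted p under 0.05 and at least 2-fold. Alternatives used DESeq2 1.42.0 and limma 3.58.1, and the fits were tested on simulated data. Of 31673 identifiers, 31426 were found in GENCODE M21. Totals of 1439670 to 6133147 counts per library set a limit of 3 counts for a gene at 0.

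The 6 genes and the gene lists were chosen with earlier results of these data known. The Mup genes entered the fit, several of them past the filter only through pHep, and no test of them is given. Genes named are the 6, every other gene with a Mup symbol, of each list of liver genes and regulators the members with the 3 highest mean TPM in pHep plus Ghr, Stat5b, Zhx2, Hnf4a, Cebpa, Nr3c1, Xist and the Y-linked genes, the 10 most alike by Pearson r, and the 5 most unequal between pHep libraries at each end. Onecut1, Apoa1 and Socs3 were named after their values were seen. Some genes that meet these rules are not reported here, but stay in the counts of their lists.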

Additional observations from a re-analysis of the deposited data

Results flagged for a closer look

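Within MEF_ciEPC, 4 of 5 Mup values that could be checked had 1 library far from the other 9. Chance gives such a library in about 1 in 20 groups of spread-out values, a rate that does not hold here, since nearly all the other libraries were at 0. Mup2 was at 1.25 TPM in series 2 passage 10 and Mup9 at 2.42 TPM in series 1 passage 2. Mup6 was at 12.28 TPM, and the family summed to 13.41 TPM, in series 2 passage 22, the library with high Pou5f1. The values of Mup2 and Mup9 are single counts, that of Mup6 is 8 counts, and 8 of the 9 counts of that family sum are Mup6.

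Mup22, a gene of the per-sample tables that the series-wide table does not list, was at 5221.03 TPM in pHep library 1 and 76.18 TPM in pHep library 2. None of its transcript windows was unique to it.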

How the results depend on the processing

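Of the counts and levels reported for whole comparisons, 87 alternative values stayed with the main one, 6 moved and 1 was lower. The count for MNF_ciHep against pHep was 3172 with only the compared groups in the fit, against 5103. The log2 ratio of pHep library 2 over library 1, -3.71 for the 6 genes, was -3.98 with TMM, -3.99 with RLE scaling and -4.39 over 22 Mup genes. The summed level in pHep library 1 was 17862 TPM over 22 genes and 8937 TPM after rescaling without Mup genes, and in library 2 it was 854.74 TPM over 22 genes. The causes were not tested, beyond the added genes. Leaving out 1 library gave 4620 to 5158 called genes in MEF_ciHep against MEF_ciEPC, 3519 to 5062 in MNF_ciHep against MNF_ciEPC, and 3542 to 4050 in MEF_ciHep against pHep. Of 20 same-numbered pairs of samples, 0 had deviations correlated above 0.1. In a group of 2 samples the deviations mirror each other, so the 20 values are not independent and cannot show that pairing is absent. With a replicate block, the counts were 4888, 4716, 5133, 3811, 4908 and 4422 for the 6 contrasts. With limma on log2 TPM, 2051 of 5201 called genes were higher in MEF_ciHep than in MEF_ciEPC, against 2864 of 5249, and 2597 of 4800 in MNF_ciHep than in MNF_ciEPC, against 3135 of 4874. Alternatives for the lists and for genes outside Mup were chosen after seeing the data, as were the folds without 1 library. Low counts in ciHep limit what can be said of any single Mup gene there.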

Other observations

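Mup6, the only family member on the plus strand, was seen outside liver cells. It had 14 and 7 counts in ESC_EPC and 2 and 10 counts in ESC, 8 counts in MEF_ciEPC series 2 passage 22, and 0 in ciHep and pHep. Of its transcript windows, 96.7% were found in no other gene. Among hepatocyte-like cells, Mup9 had 1, 0 and 13.9 counts in MEF_ciHep and 2.47 and 1.16 counts in MNF_ciHep, against 0 in pHep library 1 and 46.7 in library 2. Most Mup9 windows were shared with other genes, so its values depend on how shared reads were divided.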
